A study of Mus musculus with 2 samples.

Results

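The threonine, serine, glycine and folate enzymes examined here are 10 genes taken by name from a table of gene read counts in mouse embryonic stem (ES) cells: Tdh and Gcat for threonine breakdown, Gldc for glycine cleavage, Phgdh, Psat1 and Psph for serine synthesis, Shmt1 and Shmt2 for the step between serine and glycine, and Mthfd1 and Mthfd2 for the folate steps. Of these 10 genes, 9 had a row among the 13620 genes listed. Tdh, matched by symbol and by gene identifier, had none and was not analysed here, so the threonine arm is described through Gcat alone. The 9 genes were compared between 1 library from cells of genotype Fbxl10 T/T and 1 library from wild-type (WT) cells, both of the C57BL/6J strain. Both cultures were kept with leukemia inhibitory factor on fibroblast feeders inactivated with mitomycin C, and the feeders were depleted by plating before use. The medium held serum and non-essential amino acids, a supplement that contains glycine and serine. Fbxl10 is an older symbol of Kdm2b, whose protein is a subunit of a variant Polycomb complex and binds unmethylated CpG-rich DNA. The labels do not say how the T allele was made, how many clones or cultures each library holds, or what part of the gene the allele alters.

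Mouse ES cells are known for their use of threonine. Threonine dehydrogenase, encoded by Tdh, oxidises threonine in mitochondria, and the enzyme encoded by Gcat splits the product into glycine and acetyl-CoA. The glycine cleavage system then passes a carbon of glycine to folate. Serine, made from a glycolytic intermediate or taken up, feeds the same folate pool through serine hydroxymethyltransferase in the cytosol (SHMT1) and in mitochondria (SHMT2). The MTHFD enzymes interconvert the carbon-bearing folates that purine and thymidylate synthesis and the methionine cycle draw on.

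Values are normalised counts per 1000000 reads (CPM), scaled by the authors, whose factors left the columns summing to 1098136 CPM in Fbxl10 T/T and 887645 CPM in WT. The library totals over listed genes were 27109446 reads in Fbxl10 T/T and 21198574 reads in WT. With 1 library per genotype no difference between genotypes could be tested, there is no replicate error, and "higher" and "lower" describe these libraries. Intervals are exact 95% intervals from the recovered read counts and cover counting error only. A gene was counted as higher or lower when it differed at least 2-fold on the log2(CPM + 0.5) scale. Over all 13512 genes at 1 CPM or more in a library, 20.6% were lower and 14.8% higher by this rule. Every count of a gene list below is to be read beside these shares. Kdm2b was at 10.6 CPM in Fbxl10 T/T, against 102.5 CPM in WT. Other features also differed between the libraries, and with 1 library per genotype they cannot be separated from the results below. All 9 primitive endoderm markers examined were higher, with a summed level of 33030 CPM in Fbxl10 T/T and 3180 CPM in WT. Of 8 pluripotency markers 5 were lower and none was higher, with sums of 1193 and 4321 CPM in the same order of genotypes. Short of 2-fold were Zfp42 and Klf4, at 63.9% and 86.9% of WT, and Tbx3, at 116.8% of WT. Of 10 fibroblast markers, which would mark feeder cells, 8 were listed and none passed the 2-fold rule. Their log2 ratios ran from -0.99 to 0.44 with a median of -0.56, and the median of the enzyme genes was -0.57. The fibroblast markers summed to 360 CPM in Fbxl10 T/T and 420 CPM in WT, mostly from Col1a1 and Col1a2. Postn and Col1a1 were at 137.1% and 115.5% of WT, and Col1a2 and Col3a1 at 86.7% and 83.3%. Thy1, Twist2, Prrx1 and Dcn were at 53.9%, 53.7%, 49.5% and 50.5% of WT. No listed marker of these lists was at 0 in either library. Pou5f1, a defining gene of the labelled cell type, was at 257 CPM in Fbxl10 T/T and 1328 CPM in WT, and Gata4, of primitive endoderm, at 1478 and 136 CPM. The part of these marker differences in the enzyme values was not tested, and in bulk RNA fewer cells of a type and less RNA per cell cannot be told apart.

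The sequences upstream of these genes are shown because KDM2B is targeted to CpG-rich DNA. They are the 250 bases before the RefSeq start of each gene in build GRCm38.p6, written from 5′ to 3′ on the gene's own strand, with each CpG dinucleotide in capitals. Mthfd1 and Gldc are the genes that were at least 2-fold lower, Psph had the largest ratio and Phgdh the ratio nearest to 1, and Amt, another glycine cleavage gene, had the smallest ratio in the glycine cleavage and folate lists.
Mthfd1 (chr12:76254982-76255231, plus strand): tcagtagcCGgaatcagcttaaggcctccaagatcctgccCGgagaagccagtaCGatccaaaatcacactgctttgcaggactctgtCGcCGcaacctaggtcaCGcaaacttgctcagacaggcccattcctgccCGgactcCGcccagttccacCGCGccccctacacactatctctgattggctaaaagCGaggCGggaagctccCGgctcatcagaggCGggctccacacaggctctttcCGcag
Gldc (chr19:30175442-30175691, minus strand): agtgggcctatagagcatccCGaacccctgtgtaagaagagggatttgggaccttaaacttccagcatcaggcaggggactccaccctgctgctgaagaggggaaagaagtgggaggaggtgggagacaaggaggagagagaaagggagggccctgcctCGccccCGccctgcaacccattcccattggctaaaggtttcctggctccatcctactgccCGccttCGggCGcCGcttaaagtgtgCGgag
Psph (chr5:129787254-129787503, minus strand): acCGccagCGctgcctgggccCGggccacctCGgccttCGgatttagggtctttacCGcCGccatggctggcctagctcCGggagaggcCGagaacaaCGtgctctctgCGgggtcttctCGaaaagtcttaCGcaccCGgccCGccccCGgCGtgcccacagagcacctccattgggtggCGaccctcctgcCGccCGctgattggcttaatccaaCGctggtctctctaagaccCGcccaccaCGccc
Phgdh (chr3:98339970-98340219, minus strand): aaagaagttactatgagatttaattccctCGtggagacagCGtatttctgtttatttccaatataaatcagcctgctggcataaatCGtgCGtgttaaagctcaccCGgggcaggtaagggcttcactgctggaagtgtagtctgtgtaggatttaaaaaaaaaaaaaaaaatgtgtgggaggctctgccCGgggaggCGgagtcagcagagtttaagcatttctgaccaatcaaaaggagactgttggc
Amt (chr9:108296655-108296904, plus strand): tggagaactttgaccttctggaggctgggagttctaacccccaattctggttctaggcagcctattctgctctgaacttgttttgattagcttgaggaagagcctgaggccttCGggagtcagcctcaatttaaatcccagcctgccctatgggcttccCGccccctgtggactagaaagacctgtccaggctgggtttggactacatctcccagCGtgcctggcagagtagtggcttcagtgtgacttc
The Mthfd1 window holds 15 CpG dinucleotides and the Gldc window 8. The Psph window holds 23, the Phgdh window 7 and the Amt window 3. Over all 32851 windows of this length the median was 6, with quartiles of 2 and 16. The 10 windows of the 9 genes, of which Psat1 has a pair, held between 7 and 24 CpG dinucleotides. The genes that were lower, Mthfd1 and Gldc, thus lie within the range of the others. None of the 10 windows held a match, on either strand, to the E-box CACGTG bound by MYC proteins, to TGATGNAA, a core of the element bound by ATF4 with C/EBP partners, or to the octamer ATGCAAAT bound by POU factors. Of all windows 6.02%, 3.45% and 1.60% hold these letters, in the same order of motifs. A missing match says only that the letters are absent from this window.

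Most of the enzyme genes, 7 of 9, lay below their WT level in the Fbxl10 T/T library. Psph lay above it, and Phgdh lay above it by no more than counting error. Listed genes as a whole lay below and above WT in nearly equal numbers, with a median log2 ratio of 0.02. Of the 9 measured, 2 were at least 2-fold lower, Mthfd1 and Gldc, none was higher and 7 lay in between. Over all 13512 genes at 1 CPM or more in a library, 20.6% were lower and 14.8% higher by the same rule, so the 2 of 9 (22.2%) were near the background share of lower genes. With the libraries brought to the same upper quartile, 1440 genes were higher and 3254 lower, against 1994 and 2781 as deposited, and the enzyme counts were 0 and 2 as before. Among the 3698 genes whose mean level lay in the members' own range, from 58.0 to 591 CPM, 7.79% were lower and 18.8% higher. The median log2 ratio of the 9 genes was -0.57, against 0.02 over all genes and 0.17 over the genes in that range. All 9 passed the minimum in both genotypes, with at least 1317 reads in Fbxl10 T/T and 1496 reads in WT. Their summed level was 1746 CPM in Fbxl10 T/T and 2628 CPM in WT, a ratio of 0.665. The counting interval of 8 of the 9 ratios lay wholly above or below 1, the exception being Phgdh. Most genes differed beyond counting error in these libraries. An exact binomial test of the reads, at an adjusted p of at most 0.05, called 5792 of 13620 genes higher and 5580 lower.

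**Figure D1:**
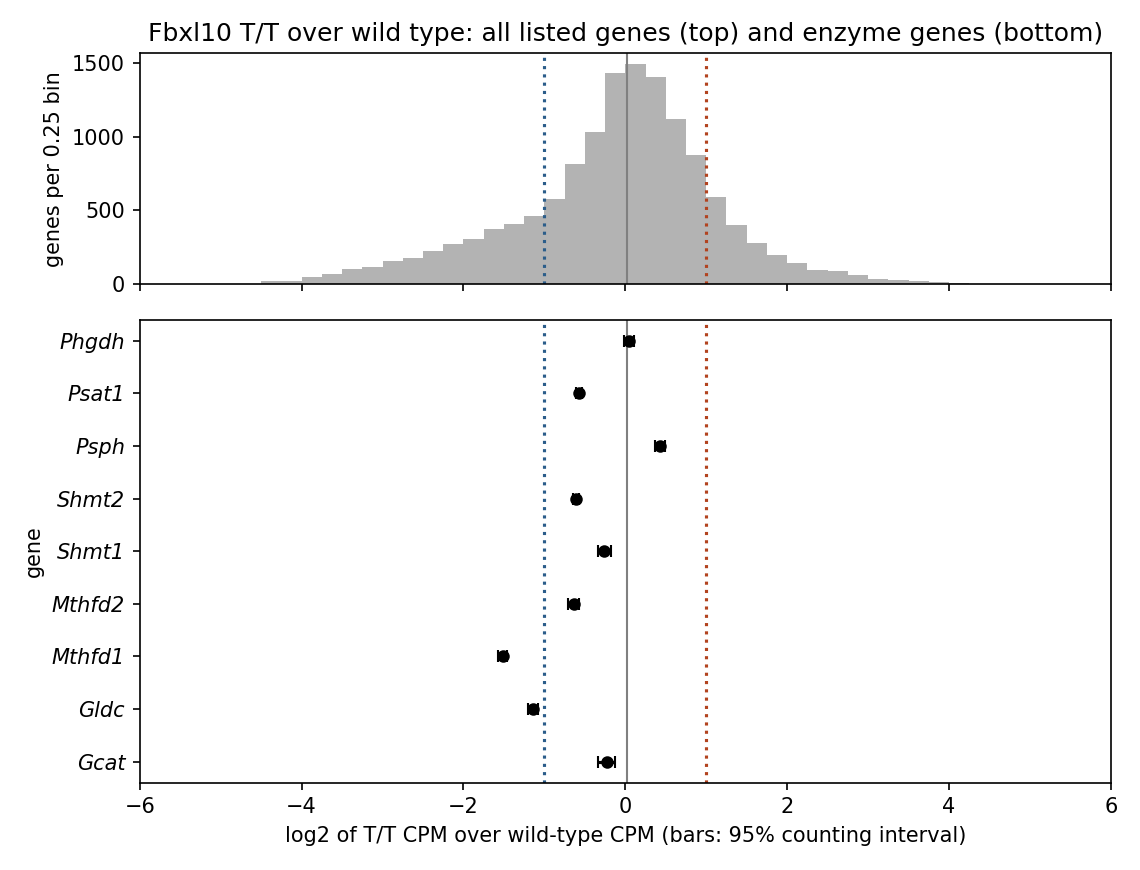
Log2 ratios of Fbxl10 T/T over WT, as a histogram of the 13512 genes at 1 CPM or more (top; genes per bin, on the log2(CPM + 0.5) scale) and for the 9 enzyme genes in order of role (bottom; points are ratios of CPM, bars 95% counting intervals). Dotted lines mark 2-fold and the grey line the median of all genes; Mthfd1 and Gldc lie left of the lower dotted line, and Psph lies farthest to the right.

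Gcat, which encodes the glycine-releasing ligase of threonine breakdown (ENSMUSG00000006378, chromosome 15 from 78861346 to 78867891 in mm9), was at 53.3 CPM in Fbxl10 T/T and 62.6 CPM in WT. The ratio was 0.852 (interval 0.790 to 0.918). A second annotated entry named Gcat shares 1132 of the 2384 exonic bases of the gene and was not analysed here. Gldc, which encodes the glycine decarboxylase that opens glycine cleavage (ENSMUSG00000024827, chromosome 19 from 30172939 to 30249908), was at 122 CPM in Fbxl10 T/T and 269 CPM in WT. It was 2.20-fold lower (interval 2.11 to 2.30). The difference between these glycine genes was larger than counting error: the Gldc ratio was 0.533 times the Gcat ratio (interval 0.488 to 0.581).

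The glycine cleavage genes did not move together. Amt, which encodes the aminomethyltransferase that hands the carbon to folate, was at 7.86 CPM in Fbxl10 T/T and 112 CPM in WT, 14.2-fold lower (interval 12.3 to 16.6). Gcsh, which encodes the lipoylated carrier protein between the subunits, was at 325 CPM in Fbxl10 T/T and 113 CPM in WT, 2.87-fold higher (interval 2.75 to 2.997). Dld, whose dehydrogenase is shared with the pyruvate and other keto acid dehydrogenase complexes, was at 47.6 CPM in Fbxl10 T/T and 27.9 CPM in WT and did not reach 2-fold. The decarboxylase and aminomethyltransferase genes were thus lower and the carrier gene higher. The Amt ratio was 0.155 times that of Gldc (interval 0.132 to 0.180), and the Gldc ratio was 0.158 times that of Gcsh (interval 0.149 to 0.168); these pairs were chosen after their values were seen.

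The serine synthesis genes lay on either side of WT, and none differed 2-fold. Phgdh, which encodes the dehydrogenase that commits phosphoglycerate to serine (ENSMUSG00000053398, chromosome 3 from 98117094 to 98143847), was at 186 CPM in Fbxl10 T/T and 180.2 CPM in WT. The ratio of 1.03 (interval 0.991 to 1.08) cannot be told from 1 at this depth, and its direction turned, to -0.09 on the log2 scale, once both libraries had the same median. Its value is uncertain, since 9 other annotated genes carry transcripts at least 95% identical to it over at least 200 bases. Among these, Gm5847 was at 166 CPM in Fbxl10 T/T and 161 CPM in WT and Gm13337 at 4.37 and 3.10 CPM in the same order, and reads shared among the copies cannot be assigned from the table. Psat1, which encodes the aminotransferase of the middle step (ENSMUSG00000024640, chromosome 19 from 15979622 to 15999473), was at 311 CPM in Fbxl10 T/T and 462 CPM in WT, 1.49-fold lower (interval 1.44 to 1.53). Psph, which encodes the phosphatase that releases serine (ENSMUSG00000029446, chromosome 5 from 130271434 to 130285320), was at 222 CPM in Fbxl10 T/T and 165 CPM in WT. Its ratio of 1.34 (interval 1.29 to 1.399) was the largest of the 9. Psph stayed above WT under both rescalings tried. Over all annotated transcripts, 452 of its 4329 exonic bases overlap exons of Cct6a on the opposite strand, a gene at 346 CPM in Fbxl10 T/T and 419 CPM in WT. The strand setting of the counts is not given in the sources used here, so the part of Cct6a reads in the Psph value was not tested. Psat1 differed from the other steps beyond counting error, within the uncertainty of Phgdh: its ratio was 0.652 times that of Phgdh (interval 0.619 to 0.686) and 0.501 times that of Psph (interval 0.476 to 0.527). Summed, the 3 serine synthesis genes were at 719 CPM in Fbxl10 T/T and 807 CPM in WT, a ratio of 0.890 (interval 0.872 to 0.909).

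**Figure D2:**
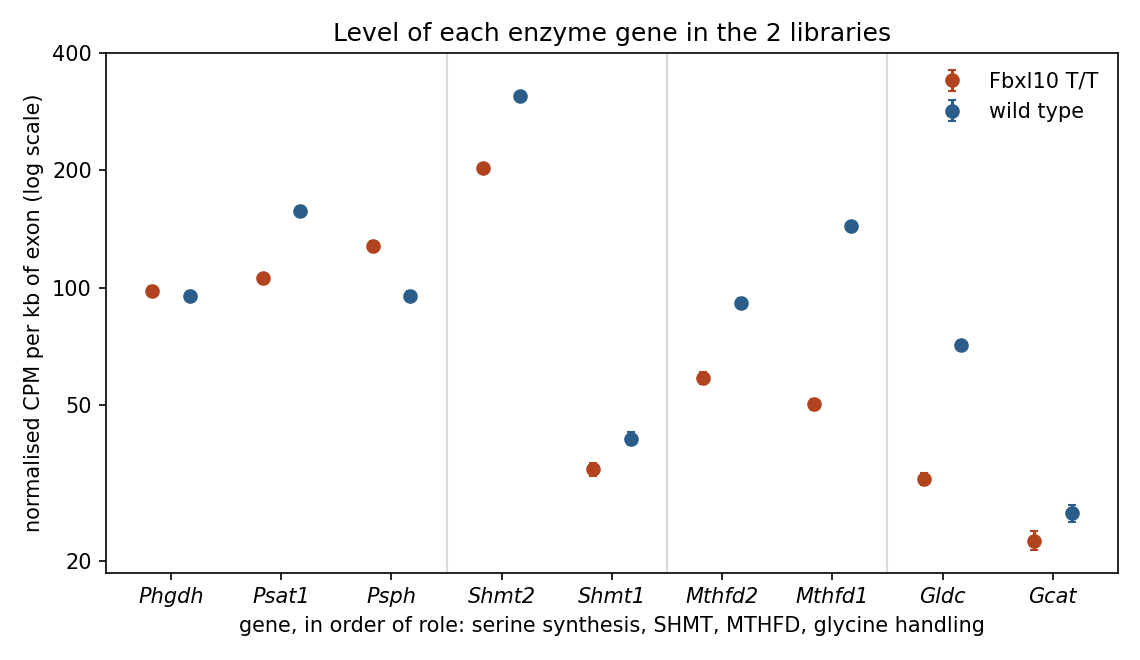
Normalised CPM per kilobase of exon (log axis) of the 9 enzyme genes in Fbxl10 T/T (left point of each pair) and WT (right point), with 95% counting intervals, grouped by role. Shmt2 is highest in both libraries and Gcat lowest; Psph and Phgdh are the genes whose Fbxl10 T/T point is the higher of the pair, and the largest gap is at Mthfd1.

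The serine hydroxymethyltransferase genes were both below WT. Shmt2, the mitochondrial form (ENSMUSG00000025403, chromosome 10 from 126954373 to 126959442), was at 468 CPM in Fbxl10 T/T and 713 CPM in WT, 1.52-fold lower (interval 1.49 to 1.56). Shmt1, the cytosolic form (ENSMUSG00000020534, chromosome 11 from 60602399 to 60624663), was at 97.9 CPM in Fbxl10 T/T and 117 CPM in WT, 1.20-fold lower (interval 1.13 to 1.27). The mitochondrial form dominated in both libraries, with 82.7% of the reads of the pair in Fbxl10 T/T (interval 82.1 to 83.3%) and 85.9% in WT (85.4 to 86.4%). The shift between the forms was small, the Shmt2 ratio being 0.786 times that of Shmt1 (interval 0.740 to 0.834). Of the 3883 annotated exonic bases of Shmt1, 184 overlap Smcr8 on the opposite strand, which was at 149 CPM in Fbxl10 T/T and 62.4 CPM in WT.

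The MTHFD pair divided more. Mthfd1, the cytosolic enzyme that joins the dehydrogenase, cyclohydrolase and synthetase reactions in a single protein (ENSMUSG00000021048, chromosome 12 from 77356395 to 77420789), was at 163 CPM in Fbxl10 T/T and 466 CPM in WT. It was 2.86-fold lower (interval 2.76 to 2.96) and kept 35.0% of its WT level, the smallest share among the 9. Mthfd2, the mitochondrial dehydrogenase and cyclohydrolase (ENSMUSG00000005667, chromosome 6 from 83255700 to 83267581), was at 123 CPM in Fbxl10 T/T and 191 CPM in WT, 1.56-fold lower (interval 1.49 to 1.63). Mthfd2 made up 42.9% of the reads of the pair in Fbxl10 T/T (interval 41.8 to 44.1%) and 29.1% in WT (28.4 to 29.8%). These shares are not corrected for length. Per kilobase of exon, Mthfd2 was above Mthfd1 in Fbxl10 T/T (58.8 and 50.3 CPM per kb) and below it in WT (91.7 and 144). The Mthfd1 ratio was 0.545 times that of Mthfd2 (interval 0.514 to 0.578). It was also lower than that of Shmt1, its cytosolic neighbour in the pathway, at 0.419 times (interval 0.392 to 0.448), and than that of Mthfd1l, the mitochondrial formyl-folate synthetase, at 0.450 times (interval 0.425 to 0.477). Against Aldh1l1, a cytosolic folate gene that was higher, it was 0.109 times (interval 0.0954 to 0.124). These last 3 pairs were picked after their values were seen.

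**Figure D3:**
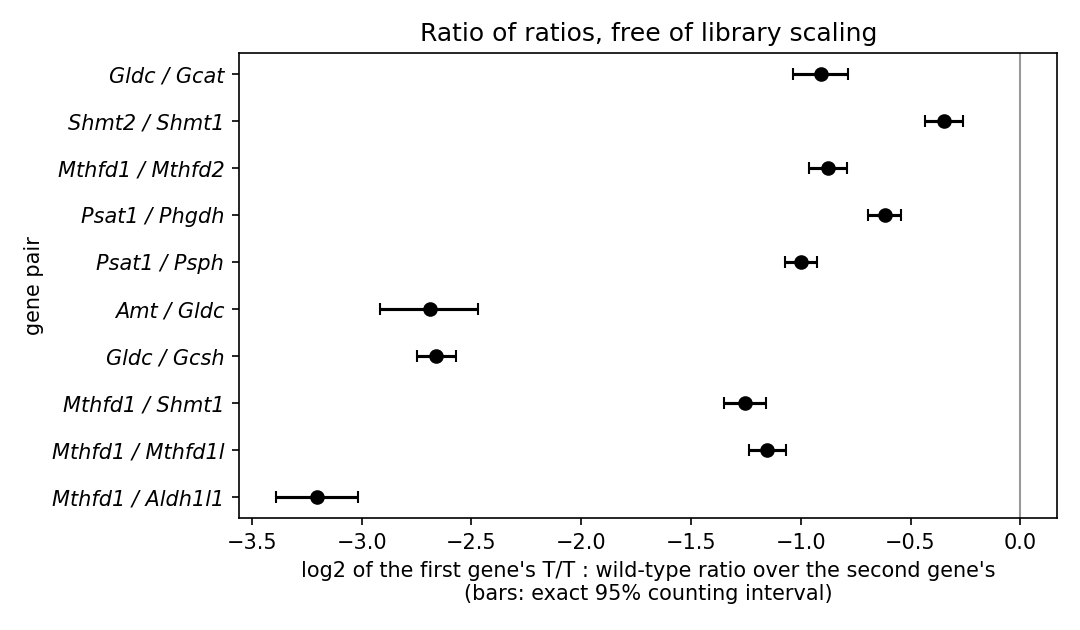
Ratio of the Fbxl10 T/T over WT ratios of gene pairs (log2 axis; points with exact 95% counting intervals), a quantity that does not depend on how the libraries were scaled. The first 5 pairs were planned and the last 5 were added after the values were seen; genes were ordered within a pair so that values lie left of 0, and the shortest distance is that of Shmt2 over Shmt1.

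Per kilobase of exon, the order of the levels differed between the genotypes. In Fbxl10 T/T the order from the top was Shmt2 (203 CPM per kb), Psph (128), Psat1 (106), Phgdh (98.3), Mthfd2 (58.8), Mthfd1 (50.3), Shmt1 (34.3), Gldc (32.4) and Gcat (22.5). In WT it was Shmt2 (310 CPM per kb), Psat1 (157), Mthfd1 (144), Psph (95.4), Phgdh (95.2), Mthfd2 (91.7), Gldc (71.5), Shmt1 (41.0) and Gcat (26.4). Neighbours in this order were compared by the ratio of their levels per kilobase. In Fbxl10 T/T no neighbours had an interval that held 1, the nearest being Shmt1 over Gldc at 1.06 (interval 1.0005 to 1.11). In WT the interval held 1 for Psph over Phgdh (1.002, interval 0.960 to 1.05) and for Phgdh over Mthfd2 (1.04, interval 0.996 to 1.08), so these orders are not resolved by the counts. Mthfd1 was thus below Mthfd2, Phgdh and Psph in Fbxl10 T/T and above all of them in WT. The place of Phgdh in both orders is uncertain beyond counting error, because reads shared with its near-identical copies cannot be assigned. Its copy Gm5847 alone was at 166 CPM in Fbxl10 T/T and 161 CPM in WT. Among 12662 genes with a length, the levels lay between the 73.5th and 97.4th percentile in Fbxl10 T/T and between the 78.5th and 98.99th in WT.

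The wider folate lists held genes on either side. Of 7 mitochondrial folate genes, which include Shmt2 and Mthfd2, 2 were lower, none higher and 5 in between (median log2 ratio -0.61), beside 20.6% of all genes lower. Aldh1l2, which encodes the mitochondrial formyl-folate dehydrogenase, was at 4.86 CPM in Fbxl10 T/T and 18.1 CPM in WT, and Mthfd2l, a paralogue of Mthfd2, at 0.729 and 2.22 CPM in the same order, from 18 and 53 reads. Of the 7503 annotated exonic bases of Aldh1l2, 1056 overlap D10Wsu102e on the opposite strand, a gene at 100.2 CPM in Fbxl10 T/T and 98.2 CPM in WT. Mthfd1l was at 137 CPM in Fbxl10 T/T and 176 CPM in WT. Slc25a32, the gene of the mitochondrial folate carrier, at 17.4 and 9.97 CPM, and Mtfmt, which formylates the initiator tRNA of mitochondria, at 16.4 and 9.76 CPM, were above WT but short of 2-fold.

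Of 7 measured cytosolic folate genes, 1 was higher, 2 were lower and 4 lay in between (median 0.03), beside 14.8% of all genes higher and 20.6% lower. Aldh1l1, the gene of the cytosolic formyl-folate dehydrogenase, was at 45.3 CPM in Fbxl10 T/T and 14.1 CPM in WT, 3.22-fold higher (interval 2.85 to 3.65). The formyl-folate dehydrogenase genes thus lay on opposite sides, the cytosolic form higher and the mitochondrial form lower. Mthfs, whose product returns a stored formyl-folate to the pool, was at 0.608 CPM in Fbxl10 T/T and 2.22 CPM in WT, from 15 and 53 reads, and 2 other annotated genes carry nearly identical sequence. Tyms, the thymidylate synthase gene, was at 65.4 CPM in Fbxl10 T/T and 64.1 CPM in WT, and transcripts nearly identical to parts of it are annotated in 8 other genes. The proliferation list had a median of 0.05, with 2 of 18 genes higher and 1 lower, beside the same shares of all genes. Those higher were Mki67 (114 CPM in Fbxl10 T/T and 35.1 CPM in WT) and Top2a (156 and 68.3 CPM), and Mcm7 was lower (221 and 455 CPM). Ftcd was not analysed here.

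Of 6 folate uptake and retention genes, 2 were higher, none lower and 4 in between (median 0.37), beside 14.8% of all genes higher. Folr1, which encodes a folate receptor at the cell surface, was at 615 CPM in Fbxl10 T/T and 228 CPM in WT, 2.70-fold higher (interval 2.62 to 2.79). Slc46a1, which encodes the proton-coupled folate transporter, was at 49.6 CPM in Fbxl10 T/T and 15.2 CPM in WT, 3.27-fold higher (interval 2.91 to 3.69). The reduced folate carrier gene Slc19a1 was at 28.5 CPM in Fbxl10 T/T and 20.3 CPM in WT. Fpgs, whose product adds the glutamate tail that keeps folate in the cell, was at 61.4 and 69.3 CPM in the same order, and Ggh, which removes it, at 8.34 and 6.91 CPM. Folr2, another folate receptor gene, was at 1.54 CPM in Fbxl10 T/T and 2.89 CPM in WT, a ratio of 0.533 (interval 0.349 to 0.803).

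**Figure D4:**
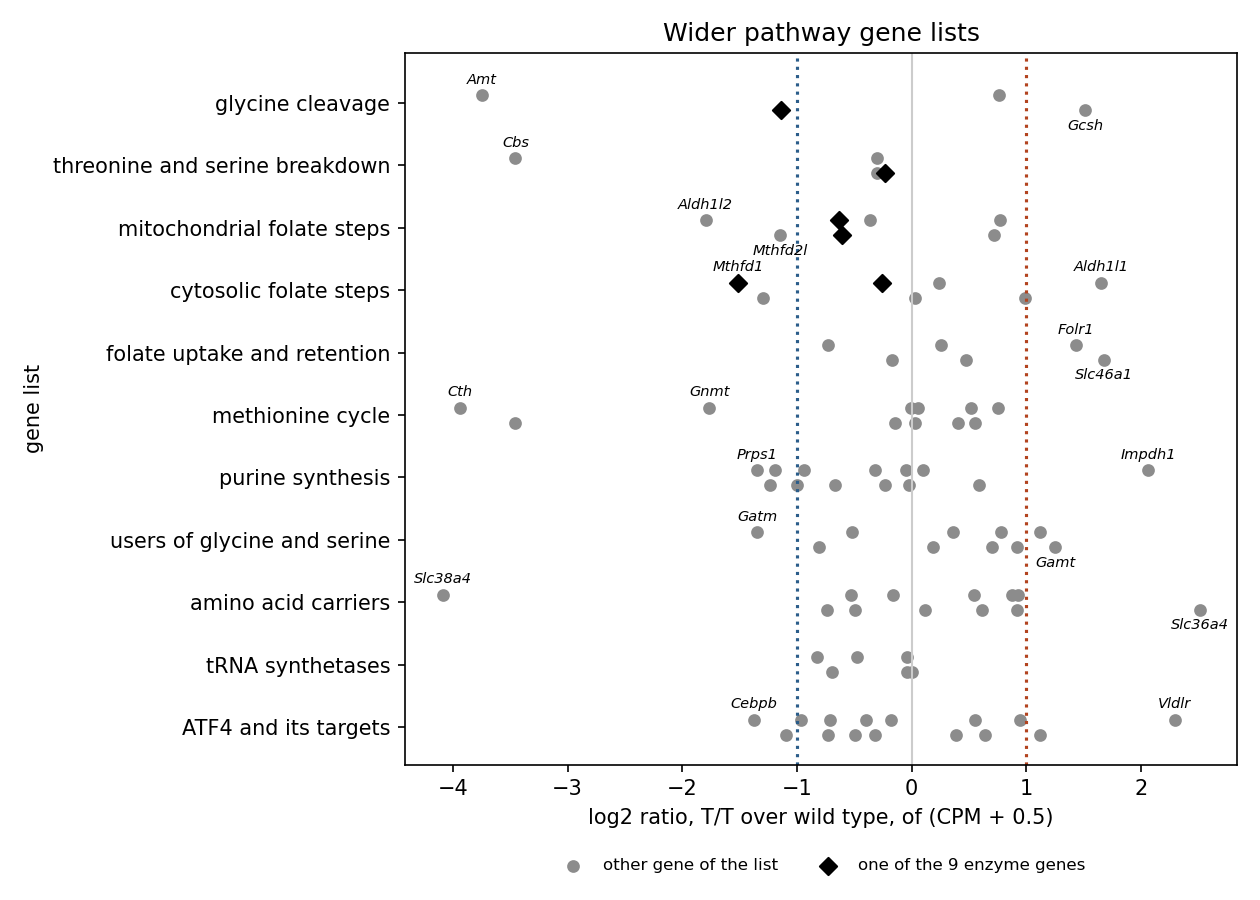
Log2 ratios of Fbxl10 T/T over WT, on the log2(CPM + 0.5) scale, for the genes of 11 pathway lists at 1 CPM or more (1 row of points per list; diamonds are the enzyme genes; dotted lines mark 2-fold). Amt, Cth, Cbs and Slc38a4 lie farthest to the left, and Slc36a4, Vldlr and Impdh1 farthest to the right.

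Among genes downstream of the folate pool, large differences stood in transsulfuration, the branch that turns homocysteine and serine into cysteine. Of 11 methionine cycle and transsulfuration genes, 3 were lower, none higher and 8 in between (median 0.03), beside 20.6% of all genes lower. Cth, the cystathionine gamma-lyase gene, was at 30.9 CPM in Fbxl10 T/T and 483 CPM in WT, 15.6-fold lower (interval 14.5 to 16.8). Cbs, whose product joins serine to homocysteine, was at 2.11 CPM in Fbxl10 T/T and 28.1 CPM in WT, 13.3-fold lower (interval 10.05 to 18.05). Gnmt, the glycine methyltransferase gene, was at 0.324 and 2.30 CPM in the same order, from 8 and 55 reads. Within the cycle itself, Mat2a, the methionine adenosyltransferase gene, was at 511 CPM in Fbxl10 T/T and 491 CPM in WT, and Mtr, the methionine synthase gene, at 54.4 and 36.9 CPM. Cbs also stands in the list of threonine and serine breakdown, where it was the single gene of 4 measured past 2-fold. Srr was at 2.80 CPM in Fbxl10 T/T and 3.56 CPM in WT, from 69 and 85 reads. Glyctk was at 1.34 and 1.76 CPM, from 33 and 42 reads, and the intervals of both ratios held 1. Of the 4560 annotated exonic bases of Srr, 1240 overlap Tsr1 on the opposite strand (70.5 CPM in Fbxl10 T/T and 51.0 CPM in WT). Of the 4229 of Glyctk, 2203 overlap an antisense gene. Sds, Sdsl and Agxt, also of this list, were not analysed here.

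Purine synthesis takes some of its carbons from glycine and formyl-folate. Of 13 genes of this list, 3 were lower, 1 higher and 9 in between (median -0.32), beside 20.6% of all genes lower and 14.8% higher. Prps1 and Prps2, which make the ribose phosphate donor, were 2.56- and 2.42-fold lower, the Prps1 entry being joined in the table with Prps1l1. Gart, whose enzyme uses formyl-folate, was at 175 CPM in Fbxl10 T/T and 402 CPM in WT, and Pfas, at 72.9 and 146 CPM, lay just inside 2-fold. Impdh1, an inosine monophosphate dehydrogenase gene of the guanine branch, was at 443 CPM in Fbxl10 T/T and 106 CPM in WT, 4.19-fold higher (interval 4.02 to 4.38).

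Of 10 other genes that use glycine or serine, 2 were higher, 1 lower and 7 in between (median 0.53), beside 14.8% of all genes higher and 20.6% lower. Alas1, which condenses glycine in haem synthesis, was at 118 CPM in Fbxl10 T/T and 54.2 CPM in WT. The creatine synthesis genes Gamt (4.78 CPM in Fbxl10 T/T and 1.72 CPM in WT) and Gatm (0.486 and 2.01 CPM) lay on opposite sides at low levels. Among 12 amino acid carriers 1 was higher and 1 lower (median 0.33), beside the same shares of all genes. Slc36a4 was at 30.8 CPM in Fbxl10 T/T and 4.98 CPM in WT, and Slc38a4 at 10.2 and 182 CPM. Sfxn1, the mitochondrial serine carrier gene, was at 134 CPM in Fbxl10 T/T and 70.2 CPM in WT, short of 2-fold.

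Phgdh, Psat1, Shmt2 and Mthfd2 are known targets of the amino acid response factor ATF4. Of 15 genes in a list of ATF4 and other targets, 2 were higher, 2 lower and 11 in between (median -0.32). Of all genes, 14.8% were higher and 20.6% lower. Atf4 itself was at 448 CPM in Fbxl10 T/T and 507 CPM in WT, and Asns, the asparagine synthetase gene, at 621 and 820 CPM. Vldlr (30.3 CPM in Fbxl10 T/T and 5.78 CPM in WT) and Chac1 (8.14 and 3.48 CPM) were higher, and Cebpb (11.1 and 29.6 CPM) and Slc7a11 (3.20 and 7.41 CPM) were lower. None of the 6 tRNA synthetase genes for threonine, serine and glycine differed 2-fold (median -0.26), beside the same shares of all genes. The cytosolic Tars, for threonine, was at 249.6 CPM in Fbxl10 T/T and 248.7 CPM in WT.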

How the data were processed

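Polyadenylated RNA was sequenced from 1 library per genotype, and both genotypes come from the labels. The submitters' processing notes name TopHat 1.4.1, HTSeq 0.5.3p9, edgeR and the mm9 build. Which tool did what, the gene annotation and whether strand was used in counting are not stated there. The deposited table gives, per gene, a signal normalised by the authors in either library. It also gives the authors' deposited log2 ratio, WT over Fbxl10 T/T, read here only as a check of direction. Every deposited signal value (100%) was a whole multiple, within 0.01 reads, of 1 step per library, so whole reads were recovered. A read was worth 0.0405 CPM in Fbxl10 T/T and 0.0419 CPM in WT. The 11086 repeated rows were used once.

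The 10 genes were found by the symbols in the file, and other genes also by GENCODE M21 symbols (13443 identifiers matched). The members and the 15 wider lists were chosen with earlier results of these data known. Named genes are the enzymes, all measured genes of the short glycine and folate lists and up to 2 at either end of every other list among genes past 2-fold; a few more are named beside them, chosen after their values were seen. Of the cytosolic folate list, 2 genes are counted but not reported here by name. The planned search for genes patterned like Tdh and the pair of Tdh with Gcat could not be run without a Tdh row. Ratio intervals are Clopper-Pearson intervals; ratios of ratios are conditional odds ratios of 4 read counts. Intervals of levels per kilobase are exact Poisson intervals. PCR copies are not independent molecules. An exact two-sided binomial test of the recovered reads compares the libraries and not the genotypes. Of 13620 genes it called 5792 higher and 5580 lower at a Benjamini-Hochberg adjusted p of at most 0.05. Most genes were thus called, and of the 9 enzyme genes 1 was called higher and 7 lower. Exon lengths are unions over GENCODE M21 protein-coding transcripts, near-identical copies were sought among its transcripts with BLAST 2.17.0, and exon overlaps come from the same annotation, which may differ from the authors'. The 2-fold rule and the ratio intervals were checked on simulated counts that held counting error only and no spread between cultures. The other steps were not checked in this way. Computation used Python 3.11.15 with scipy 1.17.1, pandas 2.3.3 and numpy 2.4.6.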

Additional observations from a re-analysis of the deposited data

How the results depend on the processing

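No paired analysis was possible because each genotype has a single library. Leaving out a library was not possible either. At a 1.5-fold rule 4 enzyme genes were lower, and 0 at a 4-fold rule; the count of 2 was the same with pseudocounts of 0.1 and 1 CPM, both rescalings, no minimum, a minimum of 5 CPM and the 2-fold rule joined with the binomial test. No enzyme gene was higher under any of these settings. Over all genes, 3582 were higher and 3876 lower at 1.5-fold, 519 higher and 1229 lower at 4-fold, and 1737 lower with a minimum of 5 CPM, which keeps fewer genes. Rescaling Fbxl10 T/T to a common median or upper quartile subtracts 0.13 or 0.24 on the log2 scale. Phgdh then moved to -0.09 or -0.19 and Psph to 0.29 or 0.19; the other 7 stayed below WT. The list medians moved with the rescaling, and those near 0 changed sign: cytosolic folate to -0.10 or -0.21, the methionine cycle to -0.10 or -0.20 and proliferation to -0.08 or -0.19. With a minimum of 5 CPM the median of the threonine and serine breakdown list, of which few genes remain, was -1.84. Counting error is small at these depths, and the spread between cultures was not measured.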
